A study of Mus musculus with 367 samples.

Results

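The 10 genes described here encode the enzymes that trim procollagen, hydroxylate its lysines and crosslink the finished fibre, with 1 helper of the trimming step. They were taken by name from the 50600 gene identifiers of the deposited tables, and all 10 are listed for every cell. The set holds the lysyl oxidases Lox, Loxl1, Loxl2, Loxl3 and Loxl4, the lysyl hydroxylases Plod1, Plod2 and Plod3, the procollagen C-proteinase Bmp1 and its enhancer Pcolce. The annotation of GRCm38 places Lox at chr18:52516067-52529867, Loxl1 at chr9:58287738-58313186, Loxl2 at chr14:69609068-69695834, Loxl3 at chr6:83034173-83052562 and Loxl4 at chr19:42593982-42612813. Plod1 lies at chr4:147909753-147936767, Plod2 at chr9:92542223-92608428, Plod3 at chr5:136987019-136996648, Bmp1 at chr14:70474558-70520234 and Pcolce at chr5:137605103-137613784.

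Fibrillar collagens are secreted as procollagens, and Bmp1 removes their C-terminal propeptides so that fibres can form. Pcolce binds the propeptide and speeds this cleavage without being a protease itself. Inside the cell the Plod enzymes add hydroxyl groups to lysines, which decides the kind of crosslink that can be made, and outside the cell the copper-dependent Lox enzymes oxidise lysines of collagen and elastin to start the crosslinks that stiffen a scar.

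Expression was measured in single cells from large wounds of Sm22-Cre;tdTomato mice of mixed background, 3 to 8 weeks old, in which square wounds of 1.5 cm a side were cut on the back. The Sm22 (Tagln) promoter drives the Cre, so the red label marks cells that used this contractile gene at any time, and viable cells with high tdTomato were sorted. Wounds were collected at days 12, 15 and 21 post-wounding (PW) from 2 to 3 tissues per day, and cells were caught on microfluidic chips, 3 captures at day 12, 2 at day 15 and 2 at day 21. All groups carry the same alleles and the same injury, and the labels set them apart by day. Each day also had its own captures, which differed in depth, and the labels do not say which mice each capture held. P-values between days therefore measure the spread between captures. Those between kinds of cell, compared within captures, measure how far the difference varied from capture to capture. Either spread may be technical.

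Of 367 cells, 292 passed the filters on depth, genes and mitochondrial RNA, and their estimated depth ran from 172335 to 7859183 fragments. Cells were divided by 3 marker genes. A matrix cell had Col1a1 of at least 1000 FPKM with Rgs5 below 100 and Tyrobp below 50, a mural cell had Rgs5 of at least 500 with Tyrobp below 50, and a myeloid cell had Tyrobp of at least 500. Near these limits 3 matrix cells lay less than 1000 FPKM above the Col1a1 limit (lowest 1011), 2 cells fell short of it with 500 to 1000, 3 mural cells had Rgs5 between 500 and 1000 FPKM (lowest 610), 5 cells had Rgs5 of 100 to 500, and the lowest myeloid cell had 1343 FPKM of Tyrobp. FPKM is the number of fragments scaled to transcript length and to the depth of the cell, so levels of different genes can be set side by side. This gave 198 matrix, 57 mural and 26 myeloid cells, and 11 cells of no kind. Of the marker lists, 6 of 6 fibroblast markers were above 0 in at least 50% of matrix cells, 6 of 7 mural markers in mural cells and 8 of 8 myeloid markers in myeloid cells. Each list includes the gene that the rule used for that kind (Col1a1, Rgs5 or Tyrobp), and that entry was fixed in advance. Mural cells also carried 5 of 6 fibroblast markers in at least 50% of cells. Capture means of the summed list, which includes Col1a1, ran from 4639 to 19287 FPKM against 20637 to 41214 FPKM in matrix cells. Myeloid cells too had 5 of 6 fibroblast markers above 0 in at least 50% of cells, and 2 of 7 mural markers. Median depth was 1435815 fragments in matrix, 1211286 in mural and 2089647 in myeloid cells.

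The lysyl oxidases are close relatives, so the sequence they share bears on how well reads could be told apart. A stretch of 60 coding bases from the C-terminal part of 4 members is shown because it is where they are most alike, with capitals at the 40 positions that are identical in all of them. Lox itself was counted in the comparisons of shared sequence, but its bases are not printed.
Loxl1: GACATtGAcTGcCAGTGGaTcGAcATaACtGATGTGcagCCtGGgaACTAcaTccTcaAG
Loxl2: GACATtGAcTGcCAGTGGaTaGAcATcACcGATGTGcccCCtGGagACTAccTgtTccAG
Loxl3: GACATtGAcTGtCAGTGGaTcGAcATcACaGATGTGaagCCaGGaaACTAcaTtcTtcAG
Loxl4: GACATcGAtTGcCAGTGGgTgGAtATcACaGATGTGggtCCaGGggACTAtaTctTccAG

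These lie on GRCm38 at chr9:58292569-58292628 on the minus strand, chr14:69690211-69690270 on the plus strand, chr6:83050385-83050444 on the plus strand and chr19:42597945-42598004 on the minus strand, in the order printed, each within 1 coding exon. Even here the differences are scattered, and no run of identical bases between a pair of family members was longer than 32, that of Lox and Loxl1. Only 8 of the 4754 different 25-base words in the Lox transcripts also occurred in Loxl1. The 3 lysyl hydroxylases shared 46 of 60 bases at their most alike stretch, and no word of 25 bases was common to any pair of them.
Plod1: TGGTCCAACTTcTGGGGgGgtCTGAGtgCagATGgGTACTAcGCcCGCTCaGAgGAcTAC
Plod2: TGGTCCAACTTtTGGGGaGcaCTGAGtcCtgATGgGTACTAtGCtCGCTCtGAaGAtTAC
Plod3: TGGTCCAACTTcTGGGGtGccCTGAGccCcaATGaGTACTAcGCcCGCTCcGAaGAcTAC

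These stretches lie at chr4:147921033-147921092 on the minus strand, chr9:92598628-92598687 on the plus strand and chr5:136990999-136991058 on the plus strand, each again within 1 coding exon. Neighbouring genes overlap some members on the opposite strand. Htra2 covers 535 exonic bases of Loxl3 (11.6%), Znhit1 covers 529 of Plod3 (11.7%) and the antisense gene Gm27177 covers 301 of Loxl2 (5.57%). The RSEM command in the methods names no strand option, so reads of these genes and of their neighbours in the shared bases cannot be told apart.

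In matrix cells Pcolce was the most abundant of the 10, and Lox, Loxl1, Bmp1 and Loxl2 followed between 82.7 and 140 FPKM. Over the 7 captures the mean of Pcolce was 802 ± 244 FPKM (SD, n = 7). Lox stood at 140 ± 50.4, Loxl1 at 104 ± 19.8, Bmp1 at 90.2 ± 32.4 and Loxl2 at 82.7 ± 35.6 FPKM. The ranges of those 4 overlapped, so their order is not fixed beyond the spread between captures. Plod3 (36 ± 26), Plod1 (33.5 ± 16.4), Loxl3 (20.1 ± 11.8), Plod2 (11.1 ± 7.23) and Loxl4 (8.81 ± 7.04 FPKM) were lower, with neighbours again within each other's spread.

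**Figure D1:**
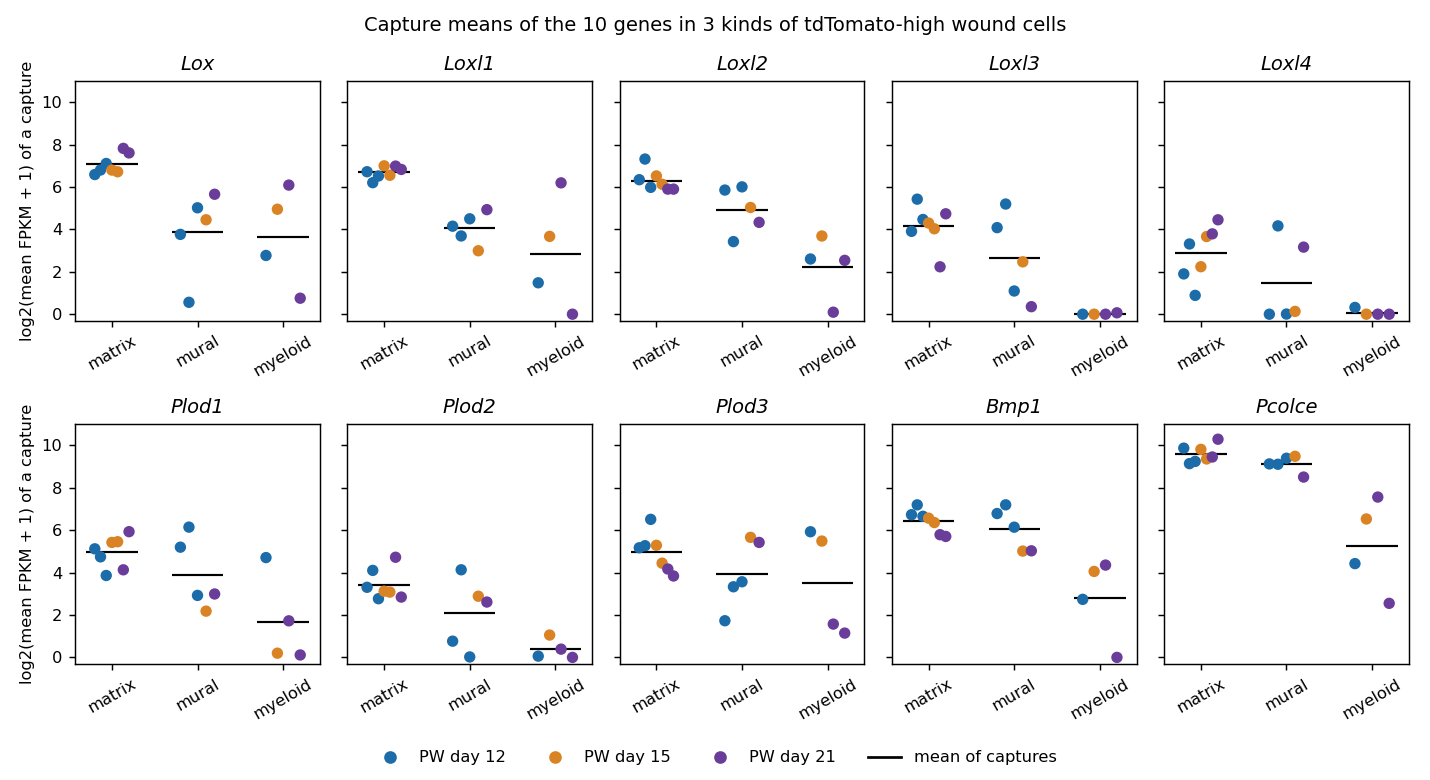
Each panel plots 1 gene, with log2(mean FPKM + 1) of a capture on the y axis and the kind of cell on the x axis. Points are captures with at least 3 cells of that kind, coloured by day, and the bar is their mean. Pcolce keeps nearly the same height in matrix and mural cells, Lox and Loxl1 stand lower in all 5 mural captures, and Loxl3 and Loxl4 are at or near 0 in the myeloid captures.

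Some of the genes were detected broadly and others in few cells. Pcolce had at least 10 FPKM in 196 of 198 matrix cells (99.0%), Lox in 175 (88.4%), Loxl1 in 171 (86.4%), Loxl2 in 144 (72.7%) and Bmp1 in 142 (71.7%). Plod1 reached that level in 67 cells (33.8%), Plod3 in 66 (33.3%), Loxl3 in 41 (20.7%), Plod2 in 35 (17.7%) and Loxl4 in 24 (12.1%). For the narrow ones the capture mean rested on few cells: the highest 10% of matrix cells held 92.6% of the Loxl4 FPKM, 85.9% of Loxl3, 78.9% of Plod2, 76.6% of Plod3 and 71% of Plod1, against 31.8% of Pcolce and 33.1% of Lox. The median matrix cell was listed at 0 FPKM for Loxl3, Loxl4 and Plod2, at 0.88 for Plod3 and at 1.01 for Plod1. A value above 0 is a weaker mark than 10 FPKM, and Loxl2 shows why. It was above 0 in 196 matrix cells (99.0%) and in 20 of 26 myeloid cells (76.9%), but the median myeloid cell held only 0.87 FPKM.

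Within the lysyl oxidase family, most matrix cells used several members together. At least 2 of the 5 reached 10 FPKM in 187 of 198 matrix cells and at least 3 did so in 129, while 2 cells had none at that level. Lox was the highest family member in 79 matrix cells (39.9%), Loxl1 in 64 (32.3%), Loxl2 in 44 (22.2%), Loxl3 in 8 and Loxl4 in 3. Fewer cells reached that level for several hydroxylases. No Plod gene reached 10 FPKM in 71 matrix cells, 1 did in 91, and 2 or more did in 36, and Plod3 was the highest in 79, Plod1 in 76 and Plod2 in 33 of the 188 cells with any value.

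In mural cells the member most often highest was Loxl2, although no member reached 10 FPKM in 20 of 57 cells. Loxl2 was the highest lysyl oxidase in 26 of 55 mural cells with any value (47.3%), Lox in 16 (29.1%) and Loxl1 in 8 (14.5%). By summed FPKM, Lox held 28.2 to 52.8% of the family in the 7 matrix captures and 0.636 to 46.5% in the 5 mural ones, and Loxl2 held 13.8 to 40.4% and 13 to 55.7%. The shares of single captures overlapped between kinds. The summed family level did not overlap, at 293 to 427 FPKM in matrix and 64.3 to 118 FPKM in mural captures. Capture 2 of day 12 stood apart in the mural cells, with Loxl3 at 47.7% of the family and Loxl4 at 22.7%, from 7 cells.

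**Figure D2:**
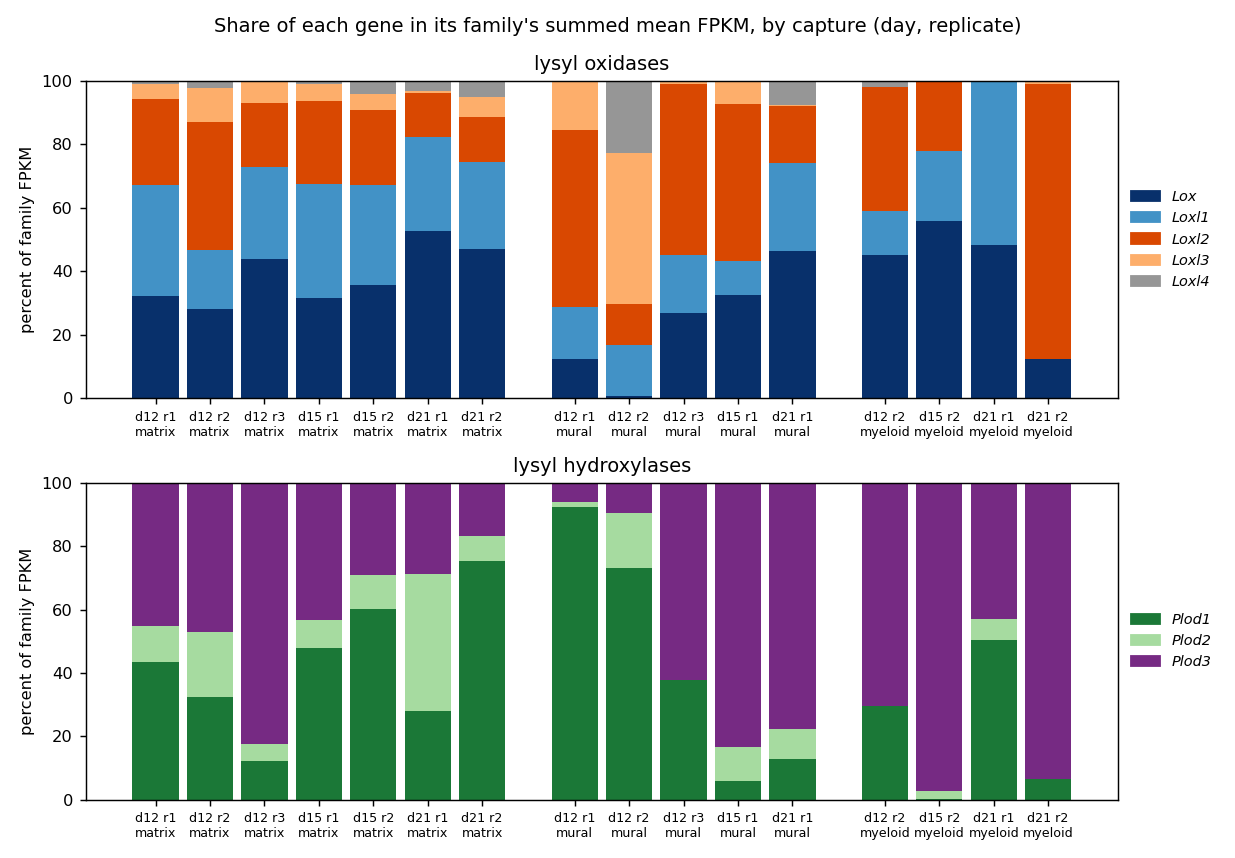
Stacked bars give the percent of the summed mean FPKM of the lysyl oxidases (top) and of the lysyl hydroxylases (bottom) that each gene held, 1 bar per capture with at least 3 cells of the kind named under it (d, day post-wounding, r, replicate capture). Lox and Loxl1 together fill most of the matrix bars outside capture 2 of day 12, Loxl2 fills 49.4 to 55.7% of 3 of the 5 mural bars, and the hydroxylase shares move widely between captures of 1 kind.

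The first comparison sets cells chosen by high Rgs5, a gene known from pericytes, against collagen-rich cells. They are called mural after that marker only, and where these sorted cells themselves lay in the wound was not measured. The paper stained wound sections for RGS5 protein and reports positive cells across the dermis, most of them not in blood vessels. It counts cells with this marker among the wound fibroblasts, as a group with low Pdgfra. The name mural therefore does not place the cells in a vessel wall. Lox and Loxl1 were lower in mural cells, and the remaining members did not pass the test. In the captures 1, 2 and 3 of day 12, 1 of day 15 and 1 of day 21, mean Lox was 95.3, 111, 137, 110 and 225 FPKM in matrix cells. In the mural cells of the same captures it was 12.6, 0.476, 31.4, 20.9 and 49.5 FPKM. The groups did not overlap, and mural Lox was highest at day 21, where matrix Lox was highest too. Loxl1, which is tied above all to elastic fibres, was 104, 72.7, 90.8, 127 and 126 FPKM in matrix cells of these captures and 16.8, 11.9, 21.6, 6.96 and 29.5 FPKM in mural cells, again with no overlap.

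The differences were tested in limma with the capture as a block, over the 13823 genes that averaged 1 FPKM or more, on log2(mean FPKM + 1). Mural minus matrix, Lox differed by -3.13 (SE 0.65, adjusted p = 0.0451, limma), 8.77-fold lower, and was lower in 5 of 5 captures. Loxl1 differed by -2.63 (SE 0.49, adjusted p = 0.0271, limma), 6.20-fold lower and in 5 of 5 captures. All genes had a median difference of -0.22, so Lox was 7.53-fold and Loxl1 5.32-fold lower relative to it. Of the 10 members 2 were called lower, beside 0.76% of all genes tested called in that direction. The median over the 10 members was -1.38. Lox was not called when any 1 of the 5 captures was left out (adjusted p from 0.065 to 0.119), nor in the fit without the block (0.0571), and Loxl1 only without capture 1 of day 21 (0.0474, and up to 0.0998 without one of the others), while the differences stayed between -3.39 and -2.29 log2 units in all of these.

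Pcolce stood at the other end. Its mean was 936, 564, 606, 900 and 701 FPKM in matrix cells of the 5 captures and 559, 552, 672, 717 and 363 FPKM in mural cells, so the groups overlapped. The difference was -0.38 (SE 0.22, adjusted p = 0.468, limma), and it turned to 0.02 when profiles were centred on the median gene. Pcolce reached 10 FPKM in 53 of 57 mural cells (93.0%). Bmp1, the protease that Pcolce assists, was 105.3, 146, 99.9, 93.9 and 54.3 FPKM in matrix and 109, 146, 69.7, 31.3 and 31.6 FPKM in mural cells, a difference of -0.55 (SE 0.41, adjusted p = 0.585, limma). Fibroblast markers, whose summed level is given above, were lower in mural cells too, and their part in these differences was not tested.

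The other lysyl oxidases and the hydroxylases had negative but scattered differences. Loxl2, which also modifies basement membrane collagen, was 80.3, 159, 62.3, 91.0 and 58.7 FPKM in matrix and 56.9, 9.73, 63.3, 31.8 and 19.2 FPKM in mural cells, a difference of -1.48 (SE 0.59, adjusted p = 0.281, limma). Loxl3 differed by -1.43, Loxl4 by -0.93, Plod1 by -0.77, Plod2 by -1.52 and Plod3 by -1.34, with adjusted p from 0.35 to 0.655 in limma. Plod3, which can also add sugars to hydroxylysine, was higher in mural cells in 2 of 5 captures and lower in 3.

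**Figure D3:**
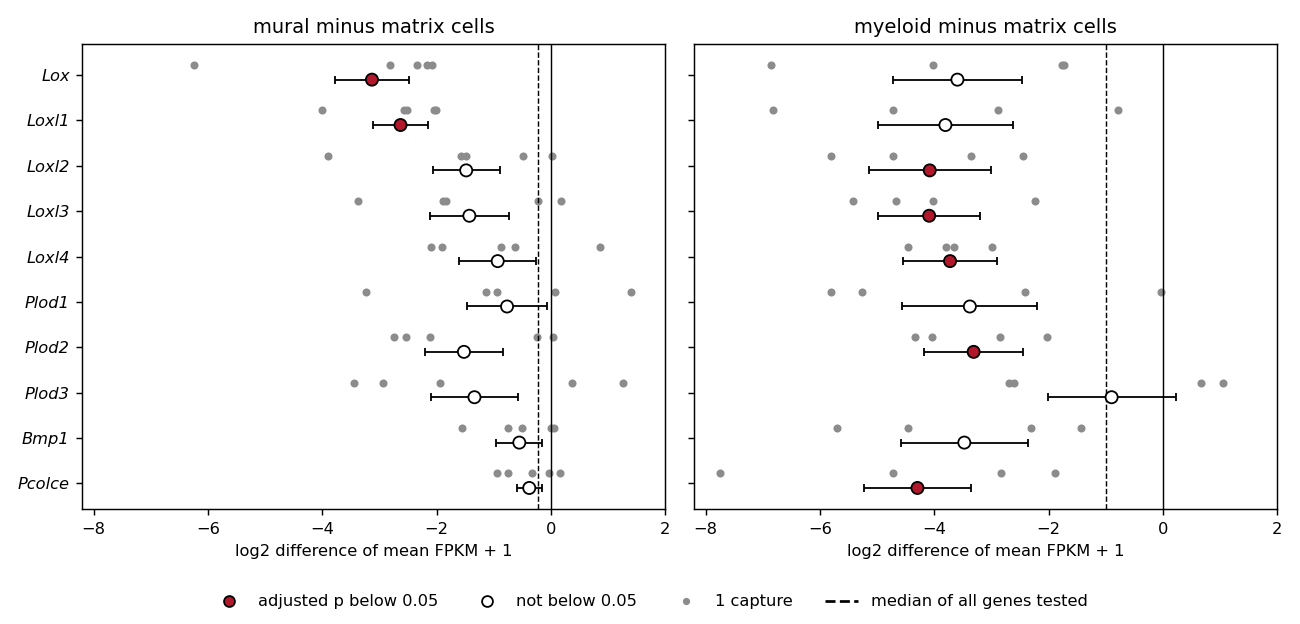
The x axis is the log2 difference of mean FPKM + 1 from matrix cells, for mural cells (left, 5 captures) and myeloid cells (right, 4 captures). Large points with bars are limma estimates with their SE, filled where the adjusted p is below 0.05, small grey points are single captures, and the dashed line is the median of all genes tested (-0.22 and -0.998). Lox and Loxl1 lie left of the other members in mural cells, while Pcolce and Bmp1 lie near the dashed line there.

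Mural cells were not alike in their collagen. The rule set no limit on Col1a1 for them, and 19 of 57 had Col1a1 of at least 1000 FPKM. In these 19, Lox had a median of 38.9 FPKM and reached 10 FPKM in 12 (63.2%), whereas in the 38 with less Col1a1 the median was listed at 0 and 4 reached it (10.5%). Loxl1 reached 10 FPKM in 10 of 19 (52.6%) and in 3 of 38 (7.89%), and Bmp1 in 17 of 19 (89.5%) and in 14 of 38 (36.8%). For Loxl2 the shares were 63.2% and 34.2%, and for Plod1 42.1% and 13.2%. Pcolce reached it in 18 of 19 (94.7%) and in 35 of 38 (92.1%). The cells with high Col1a1 were spread unevenly, 5 of 9, 2 of 7, 3 of 14, 5 of 18 and 4 of 8 cells in the 5 captures, and mean Col1a1 of mural cells was 6689 FPKM in capture 1 of day 21 against 1134 to 1829 FPKM in the other 4. These are counts of cells, not of captures, and no test was made. A fit chosen after seeing the data used only the low cells of the 5 captures. The 1 mural cell of capture 2 of day 15 was left out. The log2 differences from matrix cells were -5.60 for Lox (SE 0.94), -5.18 for Loxl1 (SE 0.97) and -0.50 for Pcolce (SE 0.28). Since Col1a1 chose both sets, these are a description with no test.

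**Figure D4:**
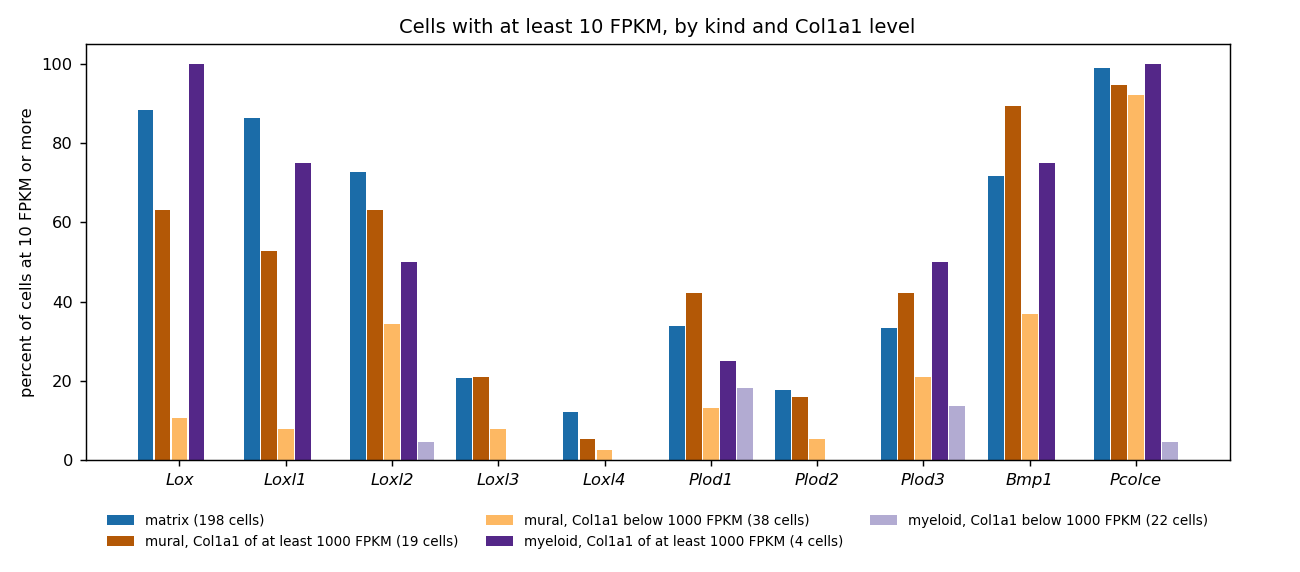
Bars give the percent of cells with at least 10 FPKM (y axis) of each gene (x axis) in matrix cells and in mural and myeloid cells divided at 1000 FPKM of Col1a1; the number of cells stands in the legend. The Lox bars drop from 63.2% to 10.5% between the mural sets, the Pcolce bars are 94.7% and 92.1%, and the 22 myeloid cells with low Col1a1 have a bar of at most 18.2%.

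The same 5 captures give the wider pathway, in 3 lists. Of 14 tested genes of collagen hydroxylation, glycosylation and folding, 0 were called in limma, and the median was -0.94. At an unadjusted p under 0.05 in limma were 6 of them, all lower in mural cells. Of all 13823 genes tested, 1976 were at that level in either direction. The smallest p values were those of the prolyl 3-hydroxylase P3h1 (-1.88, adjusted p = 0.0866), its partner protein Crtap (-1.42, adjusted p = 0.117) and the prolyl 4-hydroxylase subunit P4hb (-0.96, adjusted p = 0.0954, all limma). Of 12 tested genes of export and cleavage 1 was called, Sparc, a collagen chaperone, at 15429 FPKM in matrix and 6763 FPKM in mural cells (-1.19, adjusted p = 0.0039, limma), and the median was -0.79. Of 15 tested substrates and partners 7 were called lower and 0 higher, with a median of -1.45. Without Col1a1, which the rule used, 6 of 14 were called lower and the median was -1.38. The 6 of the 15 with the lowest p were Col1a2 (-2.01), Col1a1 (-1.93), Col3a1 (-1.80), the matricellular protein Postn (-1.45), the collagen-binding Dpt (-2.71) and the elastic fibre protein Fbln5 (-2.82), with adjusted p up to 0.0451 in limma.

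The second comparison sets the myeloid cells, sorted by the red label but carrying macrophage markers, against the matrix cells of the same captures. Pcolce and Loxl2 were called lower, in a test that called 4.9% of all 13059 genes lower. Loxl3, Loxl4 and Plod2 met the filter on low values only through matrix cells and so could differ in 1 direction only, and their values are given as a description. The levels behind this were uneven. In capture 2 of day 12, 2 of day 15 and 1 and 2 of day 21, mean Pcolce in myeloid cells was 20.5, 91.4, 188 and 4.86 FPKM, against 564, 657, 701 and 1254 FPKM in matrix cells. Lox was 5.83, 29.96, 67.2 and 0.687 FPKM in myeloid and 111, 104, 225 and 194 FPKM in matrix cells. No capture overlapped for either gene, and yet capture 1 of day 21 was far above capture 2 of that day in both.

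Pcolce differed by -4.30 (SE 0.94, adjusted p = 0.0286, limma), and Loxl2 by -4.08 (SE 1.07, adjusted p = 0.0461, limma), each lower in 4 of 4 captures. Mean FPKM in matrix and myeloid cells was 21.7 and 0.0117 for Loxl3, 13.6 and 0.0618 for Loxl4, and 13.8 and 0.358 for Plod2. Lox (-3.60), Loxl1 (-3.81), Bmp1 (-3.48) and Plod1 (-3.38) were lower in 4 of 4 captures too but had adjusted p from 0.0723 to 0.0975 in limma. Plod3 differed by -0.90 (SE 1.12, adjusted p = 0.616, limma), higher in 2 captures and lower in 2. The median over all genes was -0.998. After profiles were shifted to a median of 0 none of the 10 was called in limma, and the lowest adjusted p, that of Pcolce, was 0.0806. The shifted fit was chosen after seeing the data. In it, Pcolce, Loxl2, Loxl1, Lox and Bmp1 (0.049) were at an unadjusted p under 0.05 in limma, beside 21.7% of all genes. Plod1 and Plod3 were not. After the planned centring on the median gene, Pcolce was at an unadjusted p of 0.045 in limma. Loxl2, Loxl1, Lox and Bmp1 were then at 0.101 to 0.249. Loxl3, Loxl4 and Plod2 are left out here, since they could differ in 1 direction only. Leaving out any 1 of the 4 captures left at most 1 member called. Fibroblast markers summed to 91.8 to 15124 FPKM over the 4 myeloid captures, against 20637 to 41214 FPKM over the matrix captures.

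The high values of Lox and Pcolce in the myeloid set lay in 4 of 26 cells, those with Col1a1 of at least 1000 FPKM. Among these 4, Lox was 48.5 to 336 FPKM and Pcolce 152 to 941 FPKM, while Loxl3 was listed at 0. The cell of day 21 held 6201 FPKM of Col1a1, 336 of Lox, 362 of Loxl1 and 941 of Pcolce beside 1515 of Tyrobp. In the other 22 cells Lox averaged 0.126 FPKM with a highest value of 1.96, Loxl1 0.0141, Bmp1 0.212 and Pcolce 0.662 FPKM. Loxl4 was listed at 0 in 22 of 22. These cells came from 6 captures and are not replicates, so the count does not bound the share that used the gene. The 4 cells had 4990 to 9284 detected genes against a median of 4962 in myeloid and 5808 in matrix cells. Whether each was 1 cell was not tested, and no doublet caller was run on chip captures of this size.

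Plod1 and Plod3 had higher means than the other members in these 22 cells. Plod3 was above 0 in 17 of 22 and Plod1 in 10, with means of 30.5 and 12.1 FPKM and maxima of 412 and 174 FPKM, and they reached 10 FPKM in 3 and 4 cells. Of the wider pathway, 13 genes of hydroxylation, glycosylation and folding were tested. P3h1 (-4.39) and the prolyl isomerases Fkbp10 (-4.54) and Ppib (-1.42) were called lower in myeloid cells, with adjusted p from 0.0328 to 0.0462 in limma. The prolyl isomerase Fkbp14 and P3h4 averaged 0.229 and 0.819 FPKM in myeloid cells, against 57.3 and 18.4 FPKM in matrix cells. They met the filter only through matrix cells and are given as a description. Of 13 tested genes of export and cleavage, Sparc (-4.90), the vesicle coat gene Sec23a (-5.14) and the collagen gene activator Creb3l1 (-4.56) were called lower. Their adjusted p ran from 0.0153 to 0.044 in limma. The procollagen N-proteinase Adamts14 was listed at 0 in myeloid cells and averaged 9.30 FPKM in matrix cells. It met the filter only through matrix cells and is given as a description. Of the substrates and partners 9 of 15 were called lower, or 8 of 14 with a median of -3.96 without Col1a1, and the 6 with the lowest p were Col1a1 (used by the rule), Col1a2 (-4.53), Col3a1 (-4.33), Fn1 (-4.18), Postn (-3.56) and Col5a2 (-3.95). The medians of the 3 lists were -3.61, -2.47 and -3.98. They still include Fkbp14, P3h4 and Adamts14, and Col1a1 that the rule used, and are given as a description. None of the 3 lists had a gene called higher, but Fkbp14, P3h4 and Adamts14 could differ in 1 direction only.

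The third comparison asks whether the matrix cells of days 12, 15 and 21 differ in these genes. None of the 10 members was called between any pair of days in limma over 13552 genes. Of all genes 0 were called between days 12 and 15, 1 (Gm2564, named after its values were seen) between days 12 and 21 and 0 between days 15 and 21, with 791, 968 and 745 at an unadjusted p under 0.05. Of the members 4 of 10 were at an unadjusted p under 0.05 between days 12 and 21, 2 in each direction, beside 7.14% of all genes.

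Lox had its highest levels at day 21. Its capture means were 95.3, 111 and 137 FPKM at day 12, 110 and 104 at day 15, and 225 and 194 at day 21. Both day 21 captures stood above the 5 earlier ones. The log2 difference was 0.88 between days 12 and 21 (SE 0.38, unadjusted p = 0.0411, adjusted p = 0.688, limma) and 0.96 between days 15 and 21 (SE 0.42, unadjusted p = 0.0428, adjusted p = 0.878, limma). The median matrix cell held 95.1, 83.4 and 153 FPKM at the 3 days. Lox was the highest lysyl oxidase in 27 of 74, 26 of 72 and 26 of 52 matrix cells.

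Bmp1 and Loxl2 had their lowest levels at day 21. Bmp1 was 105.3, 146 and 99.9 FPKM at day 12, 93.9 and 81.2 at day 15 and 54.3 and 51.2 at day 21, with both day 21 captures below all others. The difference between days 12 and 21 was -1.11 (SE 0.42, unadjusted p = 0.0226, adjusted p = 0.631, limma), and the median cell held 80.9, 49.5 and 17.1 FPKM at the 3 days. Loxl2 was 80.3, 159 and 62.3 FPKM at day 12, 91.0 and 69.04 at day 15 and 58.7 and 58.8 at day 21, a difference of -0.65 (SE 0.50, adjusted p = 0.815, limma). It was the highest lysyl oxidase in 23 of 74, 15 of 72 and 6 of 52 matrix cells. These are counts of cells and were not tested.

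**Figure D5:**
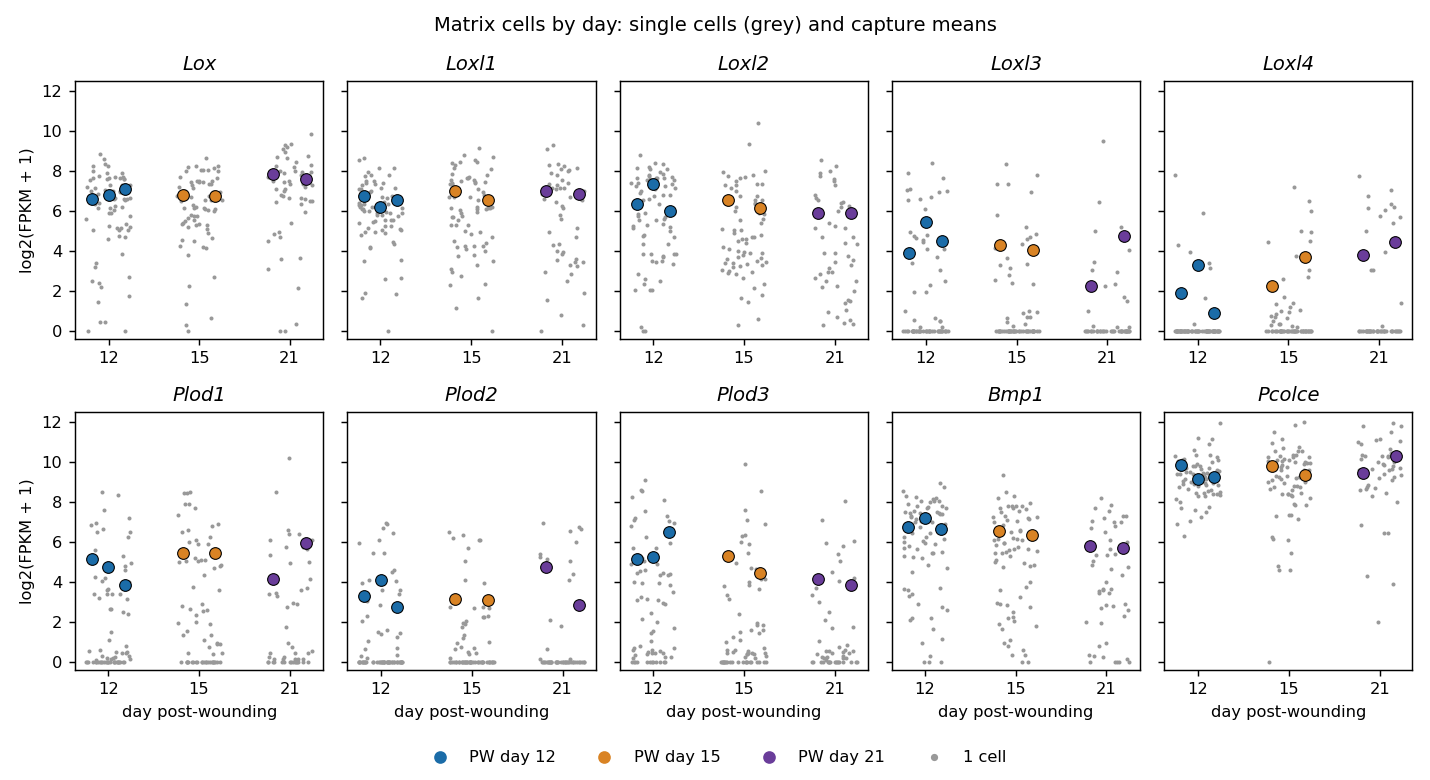
Panels give log2(FPKM + 1) of single matrix cells (grey, 74, 72 and 52 cells) and log2(mean FPKM + 1) of captures (large points, 3, 2 and 2) against day post-wounding. The day 21 points of Lox lie above and those of Bmp1 and Plod3 below every earlier capture, and the grey points of Loxl3, Loxl4 and Plod2 pile up at 0.

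Plod3 and Loxl4 also had day 21 captures outside the earlier range, but on narrower ground. Plod3 was 35.1, 37.6 and 90.3 FPKM at day 12, 38.1 and 20.8 at day 15 and 17.0 and 13.3 at day 21, a difference of -1.65 (SE 0.62, unadjusted p = 0.0223, adjusted p = 0.629, limma). It reached 10 FPKM in 45.9%, 29.2% and 21.2% of cells. Loxl4 was 2.73, 8.94 and 0.851 FPKM at day 12, 3.72 and 11.7 at day 15 and 12.8 and 20.9 at day 21, a difference of 2.09 (SE 0.93, unadjusted p = 0.0479, adjusted p = 0.696, limma). A single cell carried 69.1%, 94.8% and 100% of the Loxl4 sum in the 3 captures of day 12. In all, 5 of 10 members had both day 21 captures outside the range of the 5 earlier ones, Lox and Loxl4 above and Loxl2, Plod3 and Bmp1 below, beside 10.1% of all genes. Median depth was higher in the day 21 captures, 2152640 and 2320268 fragments, than in the earlier ones, 952831 to 2078679, and its part in these values was not tested.

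The remaining members had no difference at an unadjusted p under 0.05 between any pair of days. Loxl1 averaged 89.3 ± 15.9 (SD, n = 3), 110 ± 24 (n = 2) and 119 ± 9.31 FPKM (n = 2). Pcolce averaged 702 ± 204, 778 ± 172 and 977 ± 391 FPKM with the same numbers of captures. Plod1, Plod2 and Loxl3 differed by at most 1.11 log2 units between any pair of days, and 1 capture alone, 1 of day 21, gave Plod2 its highest mean (25.4 FPKM) and Loxl3 its lowest (3.71 FPKM). Of the wider lists none had a called gene between days in limma. The lowest p between days 12 and 21 was that of Postn, at 3932 and 1857 FPKM (-1.09, unadjusted p = 0.000672, adjusted p = 0.294, limma). Col3a1 was at 6810 and 11873 FPKM (0.80, adjusted p = 0.478, limma), and Fbln5 at 59.1 and 171 FPKM (1.39, adjusted p = 0.613, limma). The lowest p of the folding list were those of P3h4 (-1.41), P4ha2 (1.15) and Serpinh1 (0.38), and of the export list those of Sparc (0.58), Mia2 (1.11) and Adamts14 (-1.29), with adjusted p from 0.687 to 0.862 in limma.

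Across matrix cells within a capture the 10 genes were weakly correlated with one another. Averaged over 7 captures and 198 cells, Spearman's rho of the 45 pairs ran from -0.11 (Loxl3 and Plod1) to 0.21 (Plod2 and Bmp1). With Col1a1 the highest was Pcolce at 0.30, above 0 in each capture, followed by Lox at 0.25 and Loxl1 at 0.21. Of 4534 genes above 0 in at least 50% of matrix cells, those most like Lox were Ogn (0.40), C1qtnf3 (0.36) and Pdpn (0.35), those most like Pcolce were Rcn3 (0.31), Sparc (0.31) and Col1a1, and those most like Bmp1 were Nrep (0.35), Igfbp3 (0.29) and B230219D22Rik (0.29). For Loxl1 they were Brca2, Timp2 and Lsp1 (0.33 to 0.37), for Loxl2 Amn1, Snrk and Uqcrc2 (0.26 to 0.28), for Loxl3 Slc39a13, Nutf2-ps1 and Emc1 (0.26 to 0.28) and for Loxl4 Itih5, Smarca4 and Mbtps1 (0.29 to 0.31). For Plod1 they were Mrc2, Abhd8 and Rbms1 (0.26 to 0.31), for Plod2 Dph3 and Lamp1 (0.35 and 0.32) and for Plod3 Stx8, Ghr and Txndc16 (0.27 to 0.28). The cells of a capture share library preparation and differ in depth, and values this low describe these cells without setting a pair apart.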

How the data were processed

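Single-cell full-length cDNA from 7 chip captures was sequenced as paired ends. The authors aligned reads with Bowtie 1.0.0 through RSEM to mm10 and the GENCODE annotation M13. What the authors deposited is 1 FPKM value per gene and cell. Symbols and positions came from GENCODE release 21 on GRCm38, which held 50376 of 50600 identifiers. Depth was estimated from the steps between low FPKM values of 9420 single-transcript genes, where a median of 78.2% of low values lay within 0.15 of a whole fragment, and the estimate was tested on simulated cells. Cells were kept with at least the study's minimum of aligned reads, at most 11000 genes and at most 15% mitochondrial FPKM; 3 cells had no depth estimate.

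Mean FPKM per capture and kind (at least 3 cells) was compared on log2(FPKM + 1) in limma 3.58.1 with a variance trend, over genes averaging 1 FPKM or more, with Benjamini-Hochberg adjustment over all genes tested, a threshold of 0.05 and 2-sided tests. Mural and myeloid fits kept the capture as a block, since both means come from it. The day fit held 7 captures in 1 model. Tests were checked on simulated data. The members and lists were chosen with earlier results of these data known. All 10 members were named; of the lists of 15, 16 and 16 genes, called genes were named up to 6 by p, otherwise the 3 lowest. Doublets were not called here, beyond the microscopy of the captures that the paper reports. Identical columns were not found among the cells. For each member the 3 genes most like it across matrix cells were named, except 1 that is not reported here.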

Additional observations from a re-analysis of the deposited data

Results flagged for a closer look

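Of 50 groups of 4 to 7 captures checked, 8 held a capture far from the others, where chance flags about 1 in 20. In capture 2 of day 12 the mural minus matrix difference of Lox was -6.24 log2 units, and mean Loxl2 in matrix cells was 159 FPKM. In capture 1 of day 15 the mural difference of Loxl1 was -4.01. In capture 3 of day 12 mean Plod3 in matrix cells was 90.3 FPKM. Among myeloid cells Loxl1 stood at 72.4 FPKM in capture 1 of day 21, Plod1 at 25.2 and Loxl4 at 0.247 FPKM in capture 2 of day 12, and Loxl3 at 0.0467 FPKM in capture 2 of day 21.

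Plod3 moved in opposite directions by day, and the difference between days was not tested. The mural minus matrix difference was 0.38 in the capture of day 15 and 1.25 in that of day 21, and negative in all 3 of day 12. The myeloid minus matrix difference was 0.66 in the capture of day 12 and 1.04 in that of day 15, and negative in both of day 21. Single cells carried much of the positive values: 1 cell held 83.4% and 74.3% of mural Plod3 in those captures of days 15 and 21, and 62.5% and 94.9% of myeloid Plod3 in those of days 12 and 15.

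The 11 cells of no kind entered no comparison. A value above 0 was seen in 90.9% of them for Loxl2, Bmp1 and Pcolce, in 81.8% for Plod3, in 63.6% for Lox, Loxl1 and Plod1, in 45.5% for Plod2 and in 36.4% for Loxl4.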

How the results depend on the processing

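Of the member differences under all alternatives, 889 kept direction and call, 65 lost the call, 11 gained one and 25 turned sign; of the counts 137 stayed within 1.5 times and 61 moved, and of the detection shares 21 and 9. Causes were not tested. For mural against matrix cells, 236 genes (131 of them higher) became 19 with no filter on low values, 657 with the mean of log2 values over cells, 90 without the variance trend, 596 with mural cells of low Col1a1 only, and 102 to 228 without 1 capture. Centring gave 244 higher and 60 lower, and shifting the median to 0 gave 216 and 62. The 2 members called became 1 under a pseudocount of 0.1, centring, shifting, a Col1a1 limit of 300 or no replicate block, 0 with no filter or no trend, and 0 to 1 without 1 capture. For myeloid against matrix cells, 861 genes (221 higher, 640 lower) became 183 under a pseudocount of 10, 31 with no filter, 485 with all deposited cells, 1365 after rescaling, 1576 after centring (1542 higher, 34 lower), 444 after shifting (381 and 63), 1870 with at least 2 cells, 1345 with low Col1a1 only and 108 to 340 without 1 capture. The 5 members past the threshold, of which Loxl3, Loxl4 and Plod2 entered only through matrix cells, became 0 under a pseudocount of 10, no filter, centring or shifting, 3 with all deposited cells or no trend, 8 with at least 2 cells or low Col1a1 only, and 0 to 1 without 1 capture. Between days, the mean of log2 values called 28 genes for day 15 against 12 and 70 for day 21 against 12 (0 and 1 in the report), weighting by cells called 1 for day 15 against 12, a stricter Col1a1 limit called 2 for day 21 against 12, and a pseudocount of 10 called 1 for day 21 against 15. The gene called for day 21 against 12 was lost (0) under a pseudocount of 0.1, no filter, rescaling, weighting and without any 1 capture. Capture numbers are shared between days, and deviations of same-numbered captures correlated at -0.00685 to 0.025. At days 15 and 21 the deviations of the 2 captures mirror each other. These correlations therefore cannot tell whether same-numbered captures share more than a number. With a replicate block on the number 0 genes were called between days 12 and 21.

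Signs turned as follows, none of them for a difference that had passed the test. Pcolce in mural cells was 0.021 after centring, and Plod3 in myeloid cells 1.16 after centring and 0.17 after shifting. Between days 12 and 15, Lox was 0.062 after centring, 0.053 after shifting, 0.0043 with the mean of log2 values and 0.063 with the replicate block, and ran from -0.20 to 0.063 as 1 capture was left out. Loxl1 was -0.074 and Pcolce -0.17 with the mean of log2 values, and Plod2 was 0.053 with the stricter Col1a1 limit. Without 1 capture Loxl2 ran from -0.51 to 0.16, Plod2 from -0.60 to 0.065 and Pcolce from -0.058 to 0.39. Between days 12 and 21, Loxl1 was -0.24 and Pcolce -0.037 with the mean of log2 values, and without 1 capture Plod2 ran from -0.55 to 1.33, Loxl3 from -2.37 to 0.14 and Plod1 from -0.45 to 1.35. Between days 15 and 21, Loxl1 was -0.16 with the mean of log2 values and ran from -0.091 to 0.35 without 1 capture, and Plod2 ran from -0.26 to 1.62, Loxl3 from -1.93 to 0.57, Plod1 from -1.31 to 0.49 and Pcolce from -0.13 to 0.71.

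The shifted profiles and the sets of low Col1a1 were chosen after seeing the data. Each day rests on 2 or 3 captures, depth is an estimate, and capture loss of transcripts at low level was not measured.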
